A study of Mus musculus with 56 samples.

Results

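Mouse embryonic fibroblasts were driven toward pluripotency with the factors Oct4, Sox2, Klf4 and Myc while the chromatin protein CTCF was depleted, and the cells that still carried the fibroblast surface protein Thy1 on day 9 are described here. The comparison sets 2 libraries of Thy1+ cells that received Ctcf shRNA (D9_shCTCF_Thy1+) against 2 libraries of Thy1+ cells that received a control shRNA (D9_shLuci_Thy1+), over all 13451 gene rows of the sorted-cell table. These are 4 of the 56 samples of the series. The 4 libraries were taken by their labels, and no measured value was used to choose them.

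All cells were OG2-MEFs, a fibroblast stock with a GFP reporter for Oct4, grown in embryonic stem cell medium with vitamin C. The labels describe both separate retroviruses and a doxycycline-induced polycistronic lentivirus for the 4 factors, and do not say which was used for the sorted cells. The Ctcf shRNA virus was concentrated before infection. The number of Ctcf hairpins is not given. Sorting separated SSEA1+ cells, SSEA1-Thy1- cells and Thy1+ cells, and the column names call the last of these SSEA1-negative and Thy1-positive. Knockdown effects in 3 other populations with 2 libraries per shRNA, the day 9 SSEA1+, day 9 SSEA1-Thy1- and day 6 Thy1+ cells, serve for comparison and share no library with the day 9 Thy1+ cells. Whether the 2 replicates of a group are separate cultures is not stated. The p-values measure the spread between replicates, taken over all 22 groups of the table, and that spread may be technical.

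CTCF is a zinc finger protein that binds DNA at many sites across the genome, halts the cohesin ring as it extrudes chromatin loops, and so sets the borders of loop domains and insulates genes from distant enhancers. In fibroblast reprogramming, cells first lose Thy1 and other mesenchymal features, then gain epithelial genes and the carbohydrate antigen SSEA1, and a minority later switch on the endogenous pluripotency network. Thy1+ cells late in the process are therefore known mainly as cells that are slow or refractory, although some can still move on.

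The unit of the table is a normalized tag count, called a score here. All 44 libraries share nearly the same distribution of scores, so a score can be compared between libraries but carries no read depth. Over the gene rows the summed scores were 27463924 and 27439751 in the control libraries and 28092048 and 27977186 in the knockdown libraries. The 4 libraries listed 173 to 243 genes at 0. Macrophage markers, 15 of which were in the table, summed to 1672 and 2318 with control shRNA and to 2101 and 1765 with Ctcf shRNA, and the defining markers Ptprc and Adgre1 scored 16 or less in every library. Laptm5, on the same list, scored 656 and 670 with control shRNA and 388 and 442 with Ctcf shRNA and was called lower. The 16 neural markers summed to 10604 and 11089 with control shRNA and to 13487 and 12942 with Ctcf shRNA. Of these 16, 7 were lower and 2 higher, with a median of -1.01, beside 12.1% and 7.51% of all genes. Stmn2, a high-scoring gene that weighs on these sums, was higher by 0.96. The 14 trophoblast and extra-embryonic endoderm markers, which include the fibroblast-expressed Sparc, summed to 40318 and 44707 and to 41626 and 49806. The 6 endothelial markers summed to 1121 and 1207 with control shRNA and to 1074 and 1199 with Ctcf shRNA. Among them Pecam1 scored 9 or less in every library, and 1 marker was called higher, a call lost whichever library was left out. The part of these markers in the results was not tested. Fibroblast genes were abundant, with Col1a1 at 97234 and 105568 in the controls and at 105568 and 117724 after knockdown.

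Ctcf itself, which checks the labels, was clearly reduced. Ctcf (ENSMUSG00000005698, chr8:105636568-105682922, plus strand of GRCm38, protein-coding) scored 925 and 959 in the control libraries and 417 and 390 in the knockdown libraries. The groups did not overlap, and the difference on the log2(score + 1) scale was -1.22 with a standard error (SE) of 0.09 (limma, Benjamini-Hochberg adjusted p = 5.5e-11). The reduction was -1.27 in SSEA1+ cells, -1.32 in SSEA1-Thy1- cells and -0.92 in day 6 Thy1+ cells, and none of these differed from the day 9 Thy1+ value past the threshold (adjusted p of the difference 0.83, 0.67 and 0.14). Thy1, the sort marker, scored 9549 and 11346 with control shRNA and 9090 and 11594 with Ctcf shRNA, with overlapping groups (-0.02, SE 0.18, adjusted p = 0.96).

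Of the 13451 genes tested, 2641 (19.6%) were called at an adjusted p below 0.05, and the larger share went down. With Ctcf shRNA 1631 genes were lower (12.1%) and 1010 were higher (7.51%). The 2 knockdown libraries lay above both controls for 30.8% of all genes and below both for 27.4%, called or not. Differences of at least 2-fold were found for 436 of the lower genes and 96 of the higher genes. Over all genes the median difference was 0.02 and 53.3% lay above 0. At an unadjusted p below 0.05 the count was 4328. The spread between replicates came from all 22 groups of the table. Estimated from the 4 libraries alone, it left 257 calls, of which 194 were lower and 63 higher. Without control replicate 1 the call count was 1572, and without knockdown replicate 1 it was 1666. The count of higher genes was 492 and 552 without control replicates 1 and 2 and 511 without knockdown replicate 1, and that of lower genes was 1080 without control replicate 1.

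**Figure D1:**
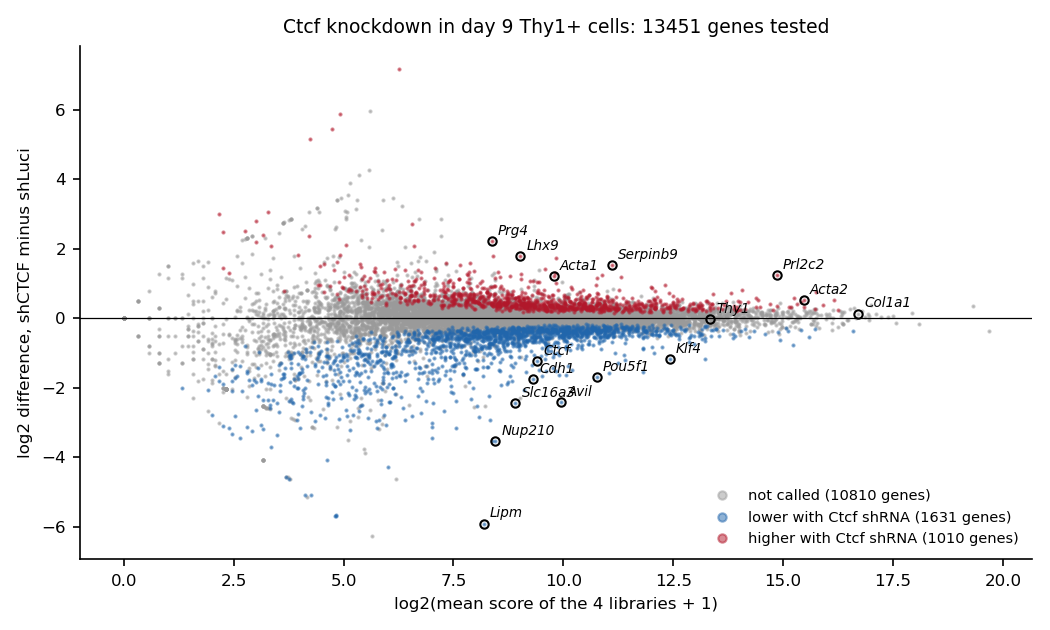
Each point is 1 of 13451 genes. The horizontal axis is the log2 of the mean score of the 4 day 9 Thy1+ libraries plus 1, and the vertical axis is the log2 difference, Ctcf shRNA minus control shRNA. Blue marks the 1631 genes called lower, red the 1010 called higher and grey the genes that were not called. Blue points reach further from 0 than red points at middling and high scores.

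The 4 reprogramming factors were all lower. Table rows for these genes can hold reads of the delivered transgenes as well as of the endogenous genes. Pou5f1 (Oct4) scored 2719 and 2568 with control shRNA and 702 and 942 with Ctcf shRNA. Sox2 scored 3275 and 3017 against 918 and 1217. Myc scored 5394 and 5380 against 1732 and 1968, and Klf4 scored 7446 and 7634 against 2947 and 3842. In each case both knockdown libraries lay below both controls. The log2 differences were -1.70 for Pou5f1 (SE 0.20), -1.57 for Sox2 (SE 0.18), -1.54 for Myc (SE 0.14) and -1.16 for Klf4 (SE 0.15), with adjusted p-values from 3.8e-09 to 1.2e-06. With the spread of the 4 libraries alone 3 of the 4 kept the call, and Klf4 had an adjusted p of 0.059.

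None of the 4 factors was called in day 6 Thy1+ cells (adjusted p from 0.66 to 0.87). On day 6, Thy1+ cells scored 2554 and 2304 for Pou5f1 with control shRNA and 2587 and 2072 with Ctcf shRNA, so the groups overlapped. The knockdown effect was lower in day 9 Thy1+ cells than in day 6 Thy1+ cells by -1.63 for Pou5f1, -1.71 for Sox2, -1.64 for Myc and -1.07 for Klf4 (adjusted p of each difference from 2.3e-06 to 0.001). Against day 9 SSEA1+ cells, where Pou5f1 scored 6988 and 7470 with control shRNA and 7256 and 7524 with Ctcf shRNA, all 4 differences were also called (-1.73, -1.53, -1.41 and -1.03 in the same order). In SSEA1-Thy1- cells Sox2 (-0.66), Myc (-0.62) and Klf4 (-0.70) were also called lower (adjusted p = 0.0079, 0.0013 and 0.00077) and Pou5f1 was not (-0.50, adjusted p = 0.055). Against those cells the differences were called for Pou5f1 (-1.20), Sox2 (-0.92) and Myc (-0.92), and not for Klf4 (-0.46, adjusted p = 0.2). Every gene group below was measured in the same libraries in which the factors were lower, and their part in those results was not tested. In RNA from sorted populations, fewer cells of a kind and less RNA per cell cannot be told apart.

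**Figure D2:**
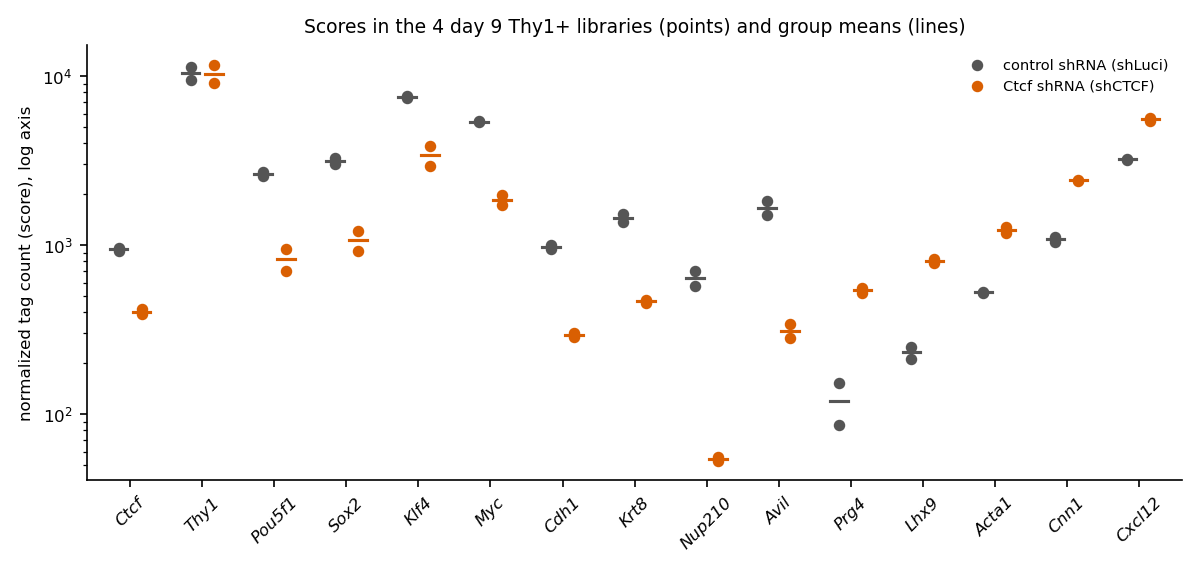
Scores on a log axis in the 2 control libraries (grey) and the 2 Ctcf shRNA libraries (orange) of day 9 Thy1+ cells. Points are libraries and short lines are group means. The libraries overlap for Thy1, whereas Ctcf, the 4 factors, Cdh1, Krt8, Nup210 and Avil are lower and Prg4, Lhx9, Acta1, Cnn1 and Cxcl12 are higher in both knockdown libraries.

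Many genes of the epithelial state, an early program of reprogramming fibroblasts, were lower. Of 25 listed epithelial genes all were in the table, 16 were lower, none was higher, and the median difference was -1.37, beside 12.1% lower and a median of 0.02 over all genes. Cdh1 (ENSMUSG00000000303, chr8:106603351-106670246), which encodes E-cadherin, scored 1008 and 948 with control shRNA and 300 and 284 with Ctcf shRNA. The difference was -1.74 (SE 0.28, adjusted p = 4.6e-05). Krt8, a keratin of simple epithelia, scored 1530 and 1368 against 456 and 472 (-1.64, SE 0.12). Epcam, an epithelial adhesion protein, scored 362 and 350 against 132 and 74 (-1.84, SE 0.20), and the tight junction gene Cldn4 scored 456 and 427 against 138 and 138 (-1.67, SE 0.11). In each of these 4 genes both knockdown libraries lay far below both controls. Esrp1, an epithelial splicing regulator, was lower by -1.62, the protease inhibitor Spint1 by -1.87, Krt18 by -1.08 and the desmosome gene Dsp by -0.59. Members that were not called included Perp at 0.15 and Krt19 at -0.18. Leaving out any 1 library gave 13 to 15 lower genes. The 4 libraries alone gave 8.

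The epithelial promoters are shown because the repressors of the SNAI and ZEB families, which hold epithelial genes silent in mesenchymal cells, bind the E-box letters CAGGTG. The sequences cover 250 bases before to 50 after the start of the gene, are from RefSeq on GRCm38.p6, and run 5′ to 3′ on the strand of the gene. Capitals mark CAGGTG or its reverse complement CACCTG. Cldn4 lies on the minus strand at chr5:134946885-134947184, Epcam on the plus strand at chr17:87635729-87636028 and Krt8 on the minus strand at chr15:102004293-102004592.
Cldn4: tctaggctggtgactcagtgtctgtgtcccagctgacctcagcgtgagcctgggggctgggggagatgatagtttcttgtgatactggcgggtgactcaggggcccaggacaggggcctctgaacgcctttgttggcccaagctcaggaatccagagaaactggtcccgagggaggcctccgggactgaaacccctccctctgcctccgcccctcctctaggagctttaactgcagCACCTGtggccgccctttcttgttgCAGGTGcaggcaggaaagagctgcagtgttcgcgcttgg
Epcam: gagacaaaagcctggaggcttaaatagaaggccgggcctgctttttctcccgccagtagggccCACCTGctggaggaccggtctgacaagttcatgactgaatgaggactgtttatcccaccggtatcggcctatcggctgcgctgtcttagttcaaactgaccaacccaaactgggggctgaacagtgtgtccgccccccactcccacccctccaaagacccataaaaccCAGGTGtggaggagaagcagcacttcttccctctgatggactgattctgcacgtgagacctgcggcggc
Krt8: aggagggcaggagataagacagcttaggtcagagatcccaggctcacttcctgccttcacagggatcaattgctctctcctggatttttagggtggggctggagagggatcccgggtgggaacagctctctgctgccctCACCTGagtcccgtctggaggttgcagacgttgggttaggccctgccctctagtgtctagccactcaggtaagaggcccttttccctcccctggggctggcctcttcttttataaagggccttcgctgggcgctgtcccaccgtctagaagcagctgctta
Of the 16 epithelial-list genes with a promoter entry, 14 (87.5%) held these letters, and of the 11 that were lower 9 did (81.8%), beside 20.0% of all 27025 promoters. The list was not chosen for its sequence. The share was no larger among the lower genes than in the whole list. A match is a description of the letters and not a bound site, and the part of these letters in the lower scores was not tested. Among the SNAI and ZEB genes, Snai2 scored 1282 and 1092 with control shRNA and 1684 and 1782 with Ctcf shRNA (0.55, SE 0.15, adjusted p = 0.012). Its call was lost without control replicate 2 (0.43, adjusted p = 0.14) and without knockdown replicate 2 (0.51, adjusted p = 0.069). Snai1 (0.40), Zeb1 (0.06) and Zeb2 (0.27) were not called (adjusted p = 0.33, 0.78 and 0.22). The promoter of Spint1, which was lower, held no such letters.

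Genes of the pluripotency network were lower too. Of 32 listed genes 16 were lower and none was higher, with a median of -1.33, beside 12.1% and 7.51% of all genes. Leaving out any 1 library gave 13 to 15 lower genes, and the 4 libraries alone gave 7. Nanog, a core pluripotency factor, scored 187 and 180 with control shRNA and 70 and 41 with Ctcf shRNA (-1.76, SE 0.44, adjusted p = 0.0055). Its call was lost without knockdown replicate 2 (-1.38, adjusted p = 0.081). Sall4, another network factor, scored 66 and 57 against 10 and 13 (-2.33, SE 0.36). The DNA methyltransferase gene Dnmt3b scored 226 and 188 against 48 and 66 (-1.85, SE 0.19), and Lin28b, a blocker of let-7 microRNA maturation, scored 259 and 270 against 90 and 68 (-1.74, SE 0.27). L1td1, an RNA-binding protein gene, was lower by -1.34, and Mybl2, a cell cycle transcription factor, by -1.53. Klf2 and Tbx3 were not called at 0.13 and 0.09. For scale, Nanog scored 1607 and 1582 in day 9 SSEA1+ cells with control shRNA and 1694 and 1688 with Ctcf shRNA.

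The genes with the largest falls were mostly outside these lists. Lipm, a lipase gene, scored 637 and 446 with control shRNA and was listed at 0 in knockdown replicate 1 and at 78 in replicate 2. Its difference of -5.91 (SE 0.94) rested on that 0: it was -2.76 without knockdown replicate 1 and -9.06 without knockdown replicate 2. Nup210 (ENSMUSG00000030091, chr6:91013068-91116829), a membrane subunit of the nuclear pore, scored 704 and 576 against 53 and 56 (-3.52, SE 0.18, adjusted p = 2.5e-13). Avil (ENSMUSG00000025432, chr10:127000709-127020994), an actin-binding protein gene, scored 1825 and 1506 against 282 and 342 (-2.41, SE 0.14). For both genes the knockdown libraries were close to each other and far below the controls. The zinc finger gene Zfp534 was lower by -2.93, Epop, a partner of Polycomb complex PRC2, by -1.91, the laminin subunit gene Lama1 by -1.82, and Shisa3 by -1.81.

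Other genes of this size had weaker support or low scores. Fut9, a fucosyltransferase that makes the SSEA1 antigen, scored 864 and 890 with control shRNA and 270 and 162 with Ctcf shRNA (-2.06, SE 0.58, adjusted p = 0.012). The call was lost without control replicate 1 (adjusted p = 0.064), without control replicate 2 (0.065) and without knockdown replicate 2 (0.11). Apela, a secreted ligand of the apelin receptor, scored 672 and 660 against 186 and 170 (-1.90, SE 0.55, adjusted p = 0.015) and lost its call whichever of the 4 libraries was left out (adjusted p from 0.063 to 0.08). Named after their values were seen, the homeobox gene Esx1 scored 120 and 122 against 7 and 4 (-4.27, SE 0.46), Dpysl5, of the collapsin response mediator family, 374 and 296 against 28 and 48 (-3.15, SE 0.18), and the receptor gene Kit 91 and 72 against 13 and 8 (-2.87, SE 0.46). In all 3 both knockdown libraries were far below both controls.

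Genes of cell division were moderately lower. Of 24 mitosis genes 16 were lower and none was higher, with a median of -0.47, beside 12.1% and 7.51% of all genes. Leaving out any 1 library gave 16 or 17 calls, although the 4 libraries alone gave 0. The cyclin gene Ccnb1 scored 1758 and 1554 with control shRNA and 1044 and 1068 with Ctcf shRNA (-0.65, SE 0.07, adjusted p = 5.2e-08). Bub1b, of the spindle checkpoint, scored 1486 and 1240 against 718 and 831 (-0.81, SE 0.09). Kif11, a spindle motor gene, was lower by -0.70, and Nusap1, a spindle-associated gene, by -0.77. Tpx2 and Kif20a were not called at -0.09 and 0.02.

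Of 26 DNA replication genes 14 were lower and none was higher, beside 12.1% and 7.51% of all genes. Their median was -0.32, and the 4 libraries alone gave 1 call. Mcm10, a replication factor gene, scored 542 and 528 against 258 and 216 (-1.18, SE 0.12). Rrm2, a ribonucleotide reductase subunit, was lower by -0.83 and the polymerase subunit Pole by -0.60, whereas Mcm4 (-0.11) and Pcna (-0.36, adjusted p = 0.064) were not called. Among p53 targets and CDK inhibitors 2 of 24 were higher and 4 lower, beside 7.51% and 12.1% of all genes, and the lower count was 1 without control replicate 1 or knockdown replicate 2 and 2 without control replicate 2. Cdkn1b, which encodes the inhibitor p27, scored 1498 and 1466 against 2298 and 2098 (0.57, SE 0.13, adjusted p = 0.0019), and Cdkn2b scored 877 and 814 against 1210 and 1224 (0.53, SE 0.11).

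Among 20 genes of CTCF, cohesin and loop extrusion, 7 were lower, Ctcf included, and 2 were higher, beside 12.1% and 7.51% of all genes. The higher count was 0 without control replicate 1 and 1 without any of the other 3 libraries. Esco2, an acetyltransferase for cohesin, scored 942 and 954 with control shRNA and 581 and 572 with Ctcf shRNA (-0.72, SE 0.10). Pds5a, a cohesin regulator, scored 10840 and 10904 against 6975 and 7580 (-0.58, SE 0.09), and Cdca5 was lower by -0.60. The cohesin subunit Smc3 was not called (-0.08, adjusted p = 0.69), and neither was Top2b (0.06). Smarca5, the ISWI remodelling ATPase that the series also studies, scored 91872 and 84867 against 83689 and 74122 (-0.16, SE 0.11, adjusted p = 0.34). Of 13 ISWI remodeller genes 4 were lower, a count of 2 without control replicate 2 or without either knockdown replicate and of 1 without control replicate 1.

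Genes of the nuclear lamina and of Polycomb complexes included several that were lower. Of 12 nuclear lamina genes 6 were lower and 1 was higher, a higher call that was lost whichever library was left out. Lbr, the lamin B receptor that tethers heterochromatin, scored 680 and 657 against 270 and 240 (-1.39, SE 0.11, adjusted p = 3.2e-10), and Lmnb1, a B-type lamin, scored 1122 and 1023 against 607 and 620 (-0.80, SE 0.08). Lmna, the A-type lamin gene, was not called at 0.12. Of 23 Polycomb and DNA methylation genes 7 were lower and 2 higher, beside 12.1% and 7.51% of all genes. The higher count was 0 without knockdown replicate 1 and 1 without control replicate 1 or knockdown replicate 2. Ezh2, the catalytic subunit of PRC2, scored 1190 and 1152 against 714 and 724 (-0.70, SE 0.07), its partners Suz12 and Jarid2 were lower by -0.61 and -0.53, and Rnf2 was not called (0.08). The 4 libraries alone gave 2 lower lamina genes and 1 lower Polycomb gene.

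Of 22 glycolysis genes 10 were lower and 1 was higher (0 without either control replicate or knockdown replicate 2). The median was -0.29, and the 4 libraries alone gave 4 lower calls. Over all genes 12.1% were lower and 7.51% higher. Slc16a3 (ENSMUSG00000025161, chr11:120948480-120960868), a lactate exporter, scored 802 and 818 with control shRNA and 146 and 150 with Ctcf shRNA (-2.44, SE 0.17, adjusted p = 5.1e-11). Pdk1, which encodes a pyruvate dehydrogenase kinase, scored 1149 and 1065 against 378 and 329 (-1.65, SE 0.09). The glucose transporter Slc2a3 scored 1744 and 1690 against 661 and 565 (-1.49, SE 0.08). Pfkl was lower by -0.76. The abundant enzymes Gapdh (-0.07) and Pkm (-0.10) were not called. Slc16a3 was already down on day 6, where Thy1+ cells scored 784 and 700 with control shRNA and 29 and 34 with Ctcf shRNA.

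Of 22 cholesterol synthesis genes 5 were lower, or 1 from the 4 libraries alone, beside 12.1% of all genes. That count was 2 without either control replicate and 1 without knockdown replicate 1, and Hmgcs1 (-0.12) and Idi1 (-0.12) were not called. Of 25 genes of the unfolded protein response and amino acid stress 7 were lower, or 0 from the 4 libraries alone, with Slc7a5 at -0.64, Mthfd2 at -0.62, Asns at -0.52 and Psat1 at -0.47. The chaperone Hspa5 was not called (0.16). Among 26 ribosomal protein genes none was called under limma, where 2641 of all genes were, and among 25 nuclear oxidative phosphorylation genes 1 was lower, a call lost without control replicate 1 and without knockdown replicate 1.

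Of 22 immediate early genes, which respond within minutes to growth factors and stress, 9 were lower, 13 were not called and none was higher, beside 12.1% of all genes lower, with a median of -0.32 and 1 call from the 4 libraries alone. Fos scored 9793 and 10342 with control shRNA and 5526 and 6526 with Ctcf shRNA (-0.74, SE 0.08, adjusted p = 6.2e-08). Atf3 scored 1236 and 1143 against 582 and 588 (-1.02, SE 0.13), Fosb was lower by -0.64 and the nuclear receptor gene Nr4a1 by -0.54. Junb and Cyr61 were not called at -0.16. Day 9 SSEA1+ cells showed 20 of the 22 genes lower with a median of -0.78, and 13 of the 22 differences between the populations were called, all with the higher value in Thy1+ cells.

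The largest rise among the genes named by size was that of Prg4. Prg4 (ENSMUSG00000006014, chr1:150449412-150466165), which encodes the joint lubricant lubricin, scored 86 and 153 with control shRNA and 523 and 560 with Ctcf shRNA (2.23, SE 0.26, adjusted p = 3.4e-07). Lhx9, a homeobox transcription factor gene, scored 213 and 251 against 785 and 831 (1.80, SE 0.27), and Serpinb9, an inhibitor of granzyme B, scored 1023 and 1242 against 3274 and 3249 (1.53, SE 0.20). In all 3 both knockdown libraries were well above both controls. Xdh, which encodes xanthine dehydrogenase, was higher by 1.31, Serpinb9b by 1.25, the transcriptional cofactor gene Eya4 by 1.21, Nov, a matrix signalling protein gene of the CCN family, by 1.18, and the receptor phosphatase gene Ptprb by 1.12. Prl2c2, a placental prolactin-family gene also made by growing fibroblasts, scored 18740 and 16212 against 40346 and 42904 (1.26, SE 0.23). It shares sequence with close copies, as does the vomeronasal receptor gene Vmn2r79 (1.73, SE 0.52, adjusted p = 0.019), whose call was lost without control replicate 2 (adjusted p = 0.17) and without knockdown replicate 1 (0.13).

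Prg4, Serpinb9 and Acta1 were higher after knockdown in all 4 populations. Serpinb9 was higher by 1.47 in SSEA1+ cells, 1.87 in SSEA1-Thy1- cells and 1.88 in day 6 Thy1+ cells, Prg4 by 1.75, 2.51 and 2.41, and Acta1 by 1.20, 1.08 and 1.53. None of these 9 values differed from the day 9 Thy1+ value past the threshold (adjusted p of the difference from 0.38 to 0.96). Lhx9 differed in SSEA1+ cells, where it scored 66 and 64 with control shRNA and 66 and 60 with Ctcf shRNA, and the difference between the effects was 1.85 (adjusted p = 0.00098). Against the other 2 populations, where Lhx9 was higher by 1.53 and 1.04, the difference was not called (adjusted p = 0.73 and 0.26).

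Contractile genes of smooth muscle, which activated fibroblasts also express, rose. Of 14 listed genes 9 were higher and none was lower, with a median of 0.39, beside 7.51% of all genes higher. Cnn1 (ENSMUSG00000001349, chr9:22099216-22109630), which encodes calponin, scored 1047 and 1113 with control shRNA and 2410 and 2415 with Ctcf shRNA (1.16, SE 0.20, adjusted p = 0.00012). The intermediate filament gene Des scored 962 and 1082 against 1742 and 1824 (0.80, SE 0.16). The muscle actin gene Acta1, from the skeletal muscle list, scored 524 and 530 against 1288 and 1178 (1.22, SE 0.13). Smooth muscle actin, Acta2, scored 36189 and 37647 against 46640 and 60776 (0.53, SE 0.14, adjusted p = 0.007), a call lost without control replicate 1 (0.50, adjusted p = 0.06) and without knockdown replicate 2 (0.34, adjusted p = 0.15). Myh11 (1.04) lost its call without control replicate 1 (0.91, adjusted p = 0.071). Tagln (0.33, adjusted p = 0.055) and Myl9 (0.26) were not called. The list count was 4 without control replicate 1 and 2 from the 4 libraries alone.

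Of 30 matrix genes 5 were lower and 1 was higher (2 without knockdown replicate 1 and 0 without any of the other 3 libraries), with a median of 0.02, the median of all genes. The lower count was 2 without knockdown replicate 1 and 3 without either control replicate. Over all genes 12.1% were lower and 7.51% higher. Col6a2 scored 11044 and 11570 against 7219 and 8234 (-0.55, SE 0.09) and Col6a1 was lower by -0.51, while Col1a1 (0.14, adjusted p = 0.40) and Fn1 (0.05) were not called. Of 22 mesenchymal regulators and surface genes 5 were higher and 1 lower, the latter lost without knockdown replicate 1. Leaving out any 1 library gave 1 higher call, and the 4 libraries alone gave 0. Among 28 Hox genes, which record the position of origin of a fibroblast, 8 were higher and none lower, with a median of 0.44. Without control replicates 1 and 2 the Hox count was 4 and 3, without knockdown replicates 1 and 2 it was 1 and 5, and the 4 libraries alone gave 0. Hoxd13 scored 278 and 247 against 532 and 440 (0.88, SE 0.12, adjusted p = 4.6e-06).

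**Figure D3:**
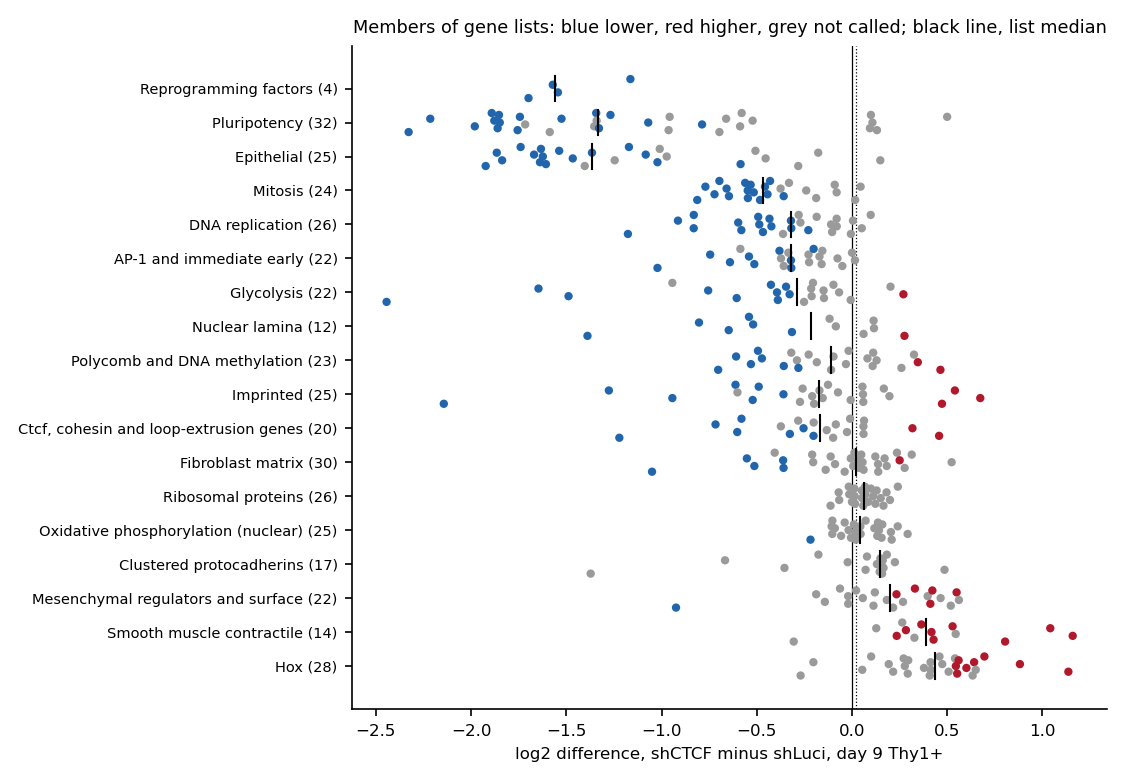
Each point is 1 gene of a list, placed at its log2 difference between Ctcf shRNA and control shRNA in day 9 Thy1+ cells, with the number of measured genes in brackets. Blue genes were called lower, red higher and grey not called. Black lines are list medians, from -1.56 for the reprogramming factors to 0.44 for Hox genes, and the dotted line is the median of all genes, 0.02.

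Secreted signals, imprinted genes and lineage markers changed gene by gene. The chemokine Cxcl12 scored 3215 and 3210 with control shRNA and 5428 and 5651 with Ctcf shRNA (0.79, SE 0.17, adjusted p = 0.0013), and Cxcl14 was higher by 1.01. The cytokine Lif, named after its values were seen, scored 435 and 468 against 238 and 264 (-0.85, SE 0.15). Il6 scored 4264 and 4968 against 3631 and 3017 (-0.48, adjusted p = 0.45). Vegfa was lower by -0.55 and Spp1, which encodes osteopontin, scored 44682 and 51160 against 25874 and 30600 (-0.76, SE 0.13). Of 25 imprinted genes, whose control regions include known CTCF sites, 7 were lower and 3 higher, beside 12.1% and 7.51% of all genes. The lower count was 3 without either control replicate or without knockdown replicate 1. Peg10 scored 3445 and 3390 against 1386 and 1434 (-1.28, SE 0.16), Nnat was lower by -0.94, and Plagl1 scored 1096 and 1260 against 2204 and 1596 (0.67, or 0.44 without knockdown replicate 1). H19 was not called at 25824 and 26733 against 22838 and 22939 (-0.20, adjusted p = 0.17).

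Among Wnt genes, Lef1, a nuclear effector, scored 108 and 114 against 33 and 22 (adjusted p = 2e-06) and Wnt9a scored 52 and 60 against 152 and 147 (1.40, SE 0.21). Both were named after their values were seen. Of 24 Wnt genes in all, 4 were lower and 2 higher, or 2 lower and 1 higher without control replicate 1 and 1 higher without knockdown replicate 1. Over all genes 12.1% were lower and 7.51% higher, so the Wnt counts stood near those shares. Stmn2, a microtubule regulator of neurons, scored 3412 and 3454 against 6815 and 6534 (0.96, SE 0.08, adjusted p = 2.8e-09). It belongs to a list of 16 neural markers of which 7 were lower and 2 higher. The lower count was 4 without control replicate 1, and the higher count was 1 without either control replicate or knockdown replicate 1. Clustered protocadherins, whose promoter choice is known in neurons to depend on CTCF, gave no call among 17 measured genes, with Pcdhgc3 at 0.07 and Pcdhga1 at 0.23 (adjusted p = 0.082). In SSEA1+ cells 14 of the 17 were lower and in SSEA1-Thy1- cells 11 were higher, and 13 differences from the SSEA1+ cells were called.

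By the number of genes whose effects differed, the knockdown response of day 9 Thy1+ cells was nearest to that of the SSEA1-Thy1- cells of the same day and farthest from that of the SSEA1+ cells. In the other populations the knockdown itself called 4.8% of genes higher and 9.04% lower in SSEA1+ cells, 14.6% and 13.4% in SSEA1-Thy1- cells, and 6.83% and 7.56% in day 6 Thy1+ cells. The difference between the effects in Thy1+ and SSEA1+ cells was called for 2653 genes (19.7%), 1268 of them higher in Thy1+ cells (9.43%) and 1385 lower (10.3%). Against SSEA1-Thy1- cells it was called for 599 genes (4.45%), 124 higher (0.922%) and 475 lower (3.53%). Against day 6 Thy1+ cells it was called for 958 genes (7.12%), 227 higher (1.69%) and 731 lower (5.43%). The count against SSEA1-Thy1- cells was 374 and 337 without Thy1+ control replicates 1 and 2, 358 without Thy1+ knockdown replicate 1, 318 and 388 without SSEA1-Thy1- control replicates 1 and 2 and 317 without SSEA1-Thy1- knockdown replicate 2. The count against day 6 Thy1+ cells was 526 without day 9 control replicate 1. The count against SSEA1+ cells stayed between 1844 and 2443 whichever library of these populations was left out. Of the genes higher in day 9 Thy1+ cells, 575 were also higher in SSEA1-Thy1- cells, which is 56.9% of the first list and 29.2% of the second. Of the lower genes 752 were shared, which is 46.1% and 41.9%. With SSEA1+ cells 122 higher genes (12.1% and 18.9%) and 170 lower genes (10.4% and 14.0%) were shared, while 113 genes higher in Thy1+ cells were called lower in SSEA1+ cells and 90 lower in Thy1+ cells were called higher there. With day 6 Thy1+ cells 332 higher genes (32.9% and 36.1%) and 369 lower genes (22.6% and 36.3%) were shared. The higher and lower counts against SSEA1+ cells were 978 and 950 without SSEA1+ control replicate 1 and 1079 and 1048 without SSEA1+ knockdown replicate 2.

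The 3 populations were also compared 1 at a time for the epithelial and pluripotency genes, and genes lower against all 3 were not counted. Over all genes the effect was called lower in day 9 Thy1+ cells for 10.3% against SSEA1+ cells. The share was 3.53% against SSEA1-Thy1- cells and 5.43% against day 6 Thy1+ cells. The effect was lower in Thy1+ cells for 17 of 25 epithelial genes against SSEA1+ cells and for 12 against each of the other populations. Cdh1 scored 3114 and 3184 in control SSEA1-Thy1- cells and 3002 and 3062 after knockdown, and its effect in Thy1+ cells was lower than there by -1.69 (adjusted p of the difference 0.012). Against day 6 Thy1+ cells the Cdh1 difference of -1.22 was not called (adjusted p = 0.061). For pluripotency genes the counts were 19, 8 and 8 of 32 against SSEA1+, SSEA1-Thy1- and day 6 Thy1+ cells. Nup210 scored 2120 and 2329 in control SSEA1+ cells and 2271 and 2446 after knockdown, and its effect was lower in Thy1+ cells by -3.61, -2.75 and -3.10 against the same 3 populations (adjusted p from 5e-10 to 2.8e-07). Division genes separated differently: the effect was lower for 18 of 24 mitosis genes against SSEA1+ cells, for 9 against day 6 Thy1+ cells and for none against SSEA1-Thy1- cells, where 21 of the 24 were lower by themselves.

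Matrix and Hox genes separated Thy1+ from SSEA1+ cells in the other direction. In SSEA1+ cells 27 of 30 matrix genes were lower after knockdown with a median of -1.12, and the effect was higher in Thy1+ cells for 26 of the 30. Col1a1 scored 12112 and 12744 in control SSEA1+ cells and 4935 and 5758 after knockdown, and the difference between the effects was 1.36 (adjusted p = 4.5e-07). The same held for 17 of 28 Hox genes and 9 of 14 smooth muscle genes. Against SSEA1-Thy1- or day 6 Thy1+ cells, no difference of effect was called for any listed Hox or smooth muscle gene. No matrix gene differed from SSEA1-Thy1- cells. Against day 6 Thy1+ cells the effect was higher on day 9 for 5 of the 30 matrix genes, beside 1.69% of all genes. Thy1 itself was lower after knockdown in SSEA1+ cells by -1.60, so that the difference from the Thy1+ cells was 1.58 (adjusted p = 5.3e-05).

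**Figure D4:**
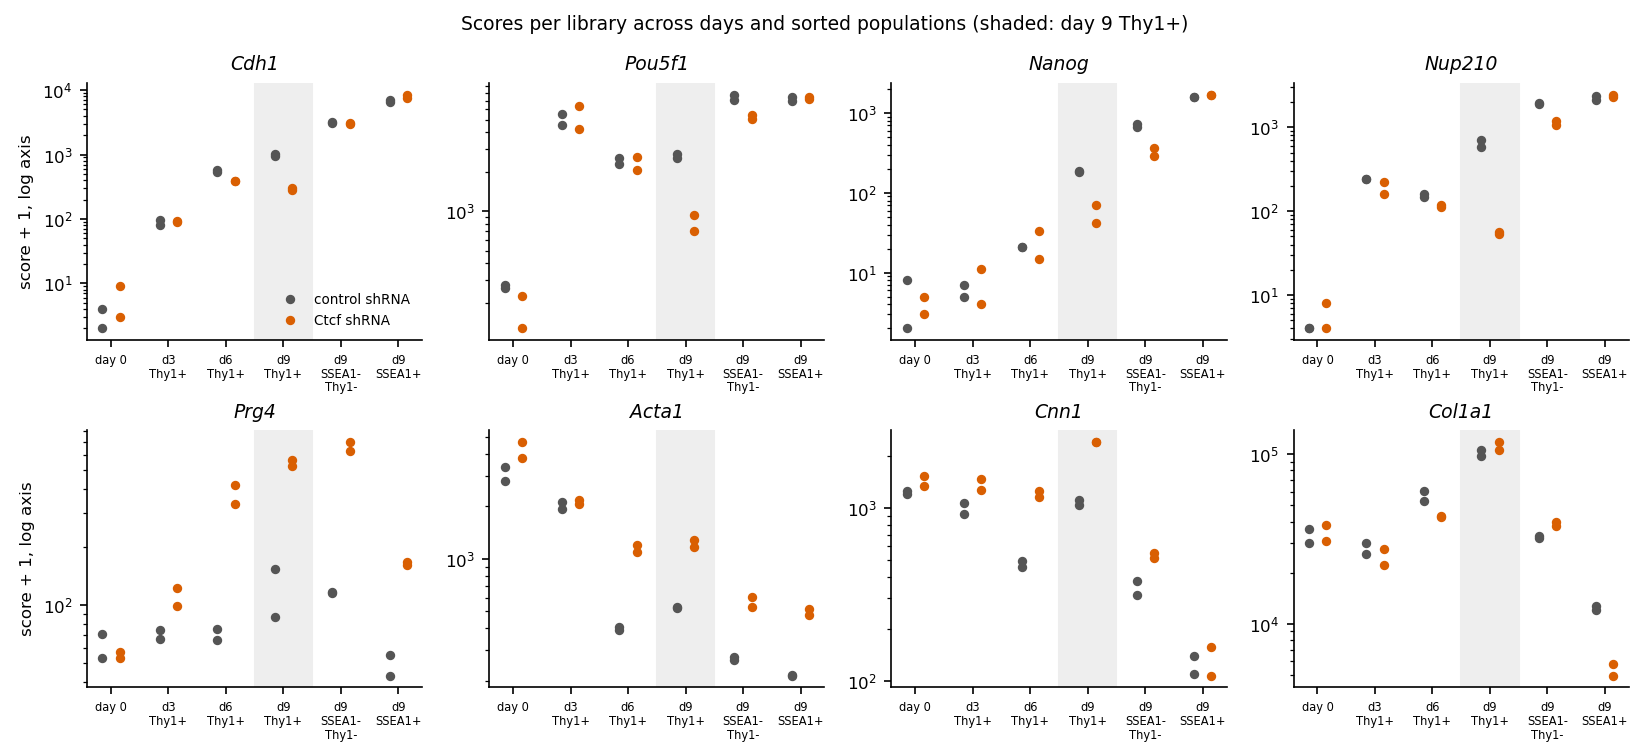
Scores plus 1 on a log axis for 8 genes, with 1 point per library, control shRNA in grey and Ctcf shRNA in orange, on day 0, in Thy1+ cells of days 3, 6 and 9, and in the SSEA1-Thy1- and SSEA1+ cells of day 9. The shaded day 9 Thy1+ column holds the widest gap between the shRNAs for Cdh1, Pou5f1 and Nup210, and Prg4 is higher with Ctcf shRNA in all populations of day 6 and day 9 shown.

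In control Thy1+ cells these genes were higher on day 9 than on day 6. Cdh1 in control Thy1+ cells scored 94 and 81 on day 3, 576 and 534 on day 6 and 1008 and 948 on day 9. With Ctcf shRNA Cdh1 scored 93 and 90, then 389 and 382, then 300 and 284. Nup210 scored 244 and 240 in control Thy1+ cells on day 3, 146 and 161 on day 6 and 704 and 576 on day 9. With Ctcf shRNA Nup210 scored 220 and 160, then 112 and 116, then 53 and 56. Cnn1 scored 458 and 495 on day 6 in the controls and 1162 and 1262 with Ctcf shRNA, a gap already as wide as on day 9 (difference between the effects -0.19, adjusted p = 0.78).

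Genes were then sorted into classes with control libraries that hold no day 9 Thy1+ cells. Of 800 genes at least 4-fold higher in day 6 SSEA1+ than in day 6 Thy1+ control cells, 57.2% were lower and 0.625% were higher after knockdown in day 9 Thy1+ cells, with a median of -0.97. Of the 1568 genes at least 4-fold higher in day 6 Thy1+ cells, 15.6% were higher and 2.30% were lower, with a median of 0.21. Of 1453 genes at least 4-fold higher in day 12 GFP+ cells than on day 0, 39.6% were lower and 1.31% higher. Of the 1559 genes at least 4-fold higher on day 0, 19.4% were higher and 1.92% lower. In the remaining genes of the 2 groupings the shares stood near those of all genes (6.86% and 6.59% higher, 10.3% and 9.83% lower). The direction of the response followed the direction of these classes, and the class with the SSEA1+ genes moved by the most.

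**Figure D5:**
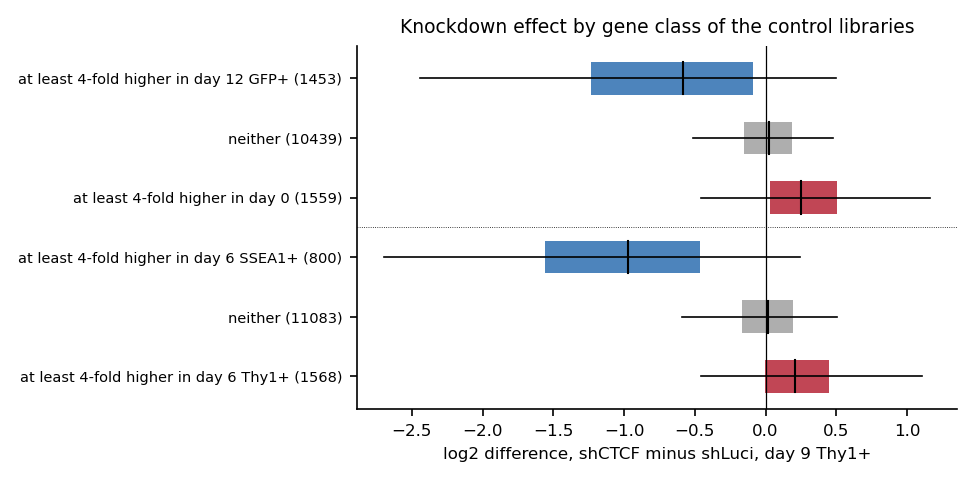
Log2 difference between Ctcf shRNA and control shRNA in day 9 Thy1+ cells for gene classes set by control libraries of other populations, with the number of genes in brackets. Bars run from the 25th to the 75th percentile, short upright lines are medians and thin lines run from the 5th to the 95th percentile. The medians are -0.97 for day 6 SSEA1+ genes and -0.58 for day 12 GFP+ genes, and 0.21 and 0.25 for their counterparts.

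Since CTCF partitions chromatin, the position of the called genes was described. Of 13426 pairs of neighbouring tested genes, 569 had both genes called, and 67.5% of these went in the same direction. For pairs 10 genes apart the share was 53.4% of 521 and for pairs 50 genes apart 49.3% of 454. It was 65.3% of 510 for neighbours whose gene bodies do not overlap. Neighbouring close copies were not left out of that count, and such pairs could share reads. There were 8 runs of at least 4 consecutive tested genes called in 1 direction, 7 of them lower. The run that was higher held Fzd4, Prss23, Me3 and Ccdc81 at chr7:89404355-89903629, with a median of 1.00.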

How the data were processed

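Total RNA of sorted cells was made into sequencing libraries. Trim Galore, FastQC, RSEM and the builds mm10 and GRCm38 are named per the submitters' processing notes, with no versions. The authors deposited normalized tag counts per gene, rounded to whole numbers, which are treated as a score with no read depth; how they were normalized is not given in the sources used here. No intervals for counting error can therefore be given. Gene positions are those of GRCm38.

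Scores were tested as log2(score + 1) with limma 3.58.1 in R 4.3.3, with a mean-variance trend and 1 coefficient for each of 22 groups over 44 libraries (22 residual degrees of freedom). The filter was a score of 10 or more in 2 or more libraries, and all 13451 genes passed it. P-values were adjusted over all genes by the Benjamini-Hochberg method, all are two-sided, and a gene was called at an adjusted p below 0.05. Differences between populations were contrasts of the same fit. The fit was tested on simulated data. Tables and figures used Python 3.11.15, pandas 2.3.3 and matplotlib 3.10.9.

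Genes named are those with the largest called differences among well-expressed genes, members of the gene lists, and some chosen after their values were seen. The members and lists were chosen with earlier results of these data known. Alternatives were the pseudocount, the filter, the libraries that set the spread, the scaling, the trend, a replicate block and leaving out each library. Some single genes are not reported here.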

Additional observations from a re-analysis of the deposited data

Results flagged for a closer look

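The knockdown effect in day 9 Thy1+ cells differed from that in another population, by the interaction contrast in limma at an adjusted p below 0.05, for 2653 genes against day 9 SSEA1+ cells, 599 against day 9 SSEA1-Thy1- cells and 958 against day 6 Thy1+ cells. The genes listed here are those with the largest such differences, each given as the log2 difference in day 9 Thy1+ cells minus that in the other population. No cause of any of these differences was tested.

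Against day 9 SSEA1+ cells, the effect was lower in Thy1+ cells for the lipase gene Lipm by -5.93, the nuclear pore gene Nup210 by -3.61, Zfp534 by -2.74, Epop by -2.22 and Apela by -2.20. It was higher in Thy1+ cells for the cytokine gene Il6 by 3.04, the matrix gene Lum by 2.54, the interleukin 1 receptor gene Il1r1 by 2.52, the urea transporter gene Slc14a1 by 2.36 and the collagen-processing protease gene Adamts2 by 2.07. None of these genes was called higher in day 9 Thy1+ cells themselves. Lum was lower there (-1.05), a call lost whichever library was left out. Il6 (-0.48), Adamts2 (-0.42), Slc14a1 (-0.18) and Il1r1 (-0.02) were not called.

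Against day 6 Thy1+ cells, the effect was lower on day 9 for Lipm by -4.93, Zfp534 by -3.14, Nup210 by -3.10, Avil by -2.22 and Fetub by -1.85. It was higher on day 9 for the lactate exporter gene Slc16a3 by 2.07, Lum by 1.99, Sned1 by 1.64, Lrrc17 by 1.64 and the collagen gene Col15a1 by 1.58. None of these genes was called higher on day 9 itself. Slc16a3 (-2.44), Lum (-1.05) and Col15a1 (-0.99) were lower in day 9 Thy1+ cells, and Lrrc17 (-0.68) and Sned1 (-0.29) were not called.

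Against day 9 SSEA1-Thy1- cells, the effect was lower in Thy1+ cells for Lipm by -5.24, Nup210 by -2.75, Zfp534 by -1.95, the imprinted gene Peg10 by -1.78 and Cdh1 by -1.69. It was higher in Thy1+ cells for Prl2c2 by 1.12, Crabp1 by 1.08, the sort marker Thy1 by 1.06, Zfp953 by 0.96 and Dynlt1c by 0.90. In day 9 Thy1+ cells themselves Prl2c2 (1.26) and Zfp953 (0.82) were higher and Crabp1 (-0.42) was lower. Thy1 (-0.02) and Dynlt1c (0.29) were not called there. The differences for Lipm, Lum and Lrrc17 against day 6 Thy1+ cells, for Apela against SSEA1+ cells, and for Lipm, Zfp534, Prl2c2, Thy1, Zfp953 and Dynlt1c against SSEA1-Thy1- cells fell short of the threshold under at least 1 other setting. Prl2c2, Zfp953 and Dynlt1c have close copies whose reads the counting could have split.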

How the results depend on the processing

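With the spread taken from the 4 libraries alone, 257 genes were called, 63 higher and 194 lower, against 2641, 1010 and 1631; fewer libraries leave fewer degrees of freedom. Leaving out 1 library gave 1572 to 2263 calls, 492 to 781 higher and 1080 to 1482 lower. Pseudocounts of 8 and 0.5 gave 2832 and 2601 calls, a mean score of at least 100 gave 2119, quantile normalization 2642, no trend 2646 and the 12 Thy1+ libraries 2115. Centring the median ratio on 0 gave 2646, 866 higher and 1780 lower. The replicate numbers have no stated shared meaning, and deviations of same-numbered libraries correlated at 0.16. A replicate block gave 3111 calls.

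Leaving out 1 library, the differences from SSEA1+ cells numbered 1844 to 2443 (860 to 1090 higher, 950 to 1353 lower), from SSEA1-Thy1- cells 317 to 703 (51 to 144 higher, 253 to 559 lower) and from day 6 Thy1+ cells 526 to 952 (92 to 234 higher, 434 to 718 lower). From SSEA1-Thy1- cells, the replicate block gave 1108 (328 higher, 780 lower) and quantile normalization 191 higher. From day 6 Thy1+ cells, the 12 Thy1+ libraries gave 499 (319 lower). The cause was not tested. With classes set at 2-fold, 1.08% of day 6 SSEA1+ genes were higher and 6.32% of the genes in neither class were lower.

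No named gene changed direction under these alternatives while called. Of 143 called named genes, 47 lost the call without at least 1 library and 92 with the 4 libraries alone, Epcam, Dnmt3b, Nanog, Prg4, Zfp534 and Epop among them. Against SSEA1+ cells, a mean of at least 100 gave 1187 differences higher and 1033 lower. Read depth is not known, so what low scores could resolve is not known.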
